A study of Mus musculus with 12 samples.

Results

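The phase II conjugation enzymes are the liver enzymes that attach glutathione, glucuronic acid or sulfate to drugs, hormones, bile acids and reactive products of metabolism. They were taken as every gene whose symbol in the platform annotation starts with Gsta, Gstm, Gstp, Gstt, Gstk, Gsto, Gstz, Mgst, Ugt1, Ugt2, Ugt3 or Sult, and each gene was represented by its probe of highest mean intensity over the arrays. The rule found 37 genes of 17742 with a probe naming 1 gene. They were 18 cytosolic or mitochondrial glutathione transferases (2 alpha, 7 mu, 4 theta, 2 omega, and 1 each of pi, kappa and zeta), 3 microsomal glutathione transferases, 4 UDP-glucuronosyltransferases and 12 sulfotransferases. All 4 UDP-glucuronosyltransferases belonged to the Ugt2 family, and the rule found no Ugt1 or Ugt3 gene among the probes naming 1 gene.

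Glutathione transferases join the tripeptide glutathione to electrophiles, UDP-glucuronosyltransferases transfer glucuronic acid from UDP-glucuronate in the endoplasmic reticulum, and cytosolic sulfotransferases transfer sulfate from the donor PAPS. The conjugates are more soluble in water than the parent compounds and leave the hepatocyte through efflux pumps. Many of these genes are known targets of NRF2 (Nfe2l2), a transcription factor that responds to oxidants, and of the xenobiotic sensors AHR, PXR (Nr1i2) and CAR (Nr1i3).

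Liver RNA of mice was compared in 3 groups on Mouse OneArray chips with a single dye. STZ+MENS animals had diabetes induced with streptozotocin (STZ, a toxin of pancreatic beta cells) and received MENS, an abbreviation the labels do not spell out, through a printed circuit board for 1 hour a day on 5 days a week over 6 weeks. STZ animals had the same induction without MENS, control animals had no treatment, and all were labelled as 8 weeks old. Each group held 2 liver samples, numbered 1 and 2 as in the labels' source names (the titles carry other numbers), and each sample was read on 2 arrays. The labels give no strain, sex or dose of STZ, and do not say that a liver sample is 1 animal. The values below are normalized intensities, averaged over the 2 arrays of a liver sample. Differences and their standard errors (SE) are on the log2(intensity + 50) scale, which understates differences between dim probes, and each comparison rests on 2 liver samples against 2.

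The arrays had almost the same distribution of values, with medians of 768.89 to 770.33. Arrays of 1 liver sample correlated across probes at 0.986 to 0.996, liver samples of 1 group at 0.976 to 0.988, and samples of different groups at 0.958 to 0.985. Hepatocyte markers (Alb, Apoa1, Ttr, Tat and Cps1) summed to 1638137 to 1724086 in STZ+MENS, 1687025 to 1868206 in STZ and 1906545 to 1959712 in control samples, and none of the 5 was dim. Pericentral hepatocyte markers (2 of 6 higher in STZ than in control and 1 of 6 in STZ+MENS than in control at an unadjusted p under 0.05) summed to 421868 and 545685 in STZ+MENS samples 1 and 2, 631670 and 791521 in STZ, and 395401 and 384950 in control. Of 7 periportal markers listed, 4 were measured (Hal, Sds, Hsd17b13 and Pck1). At an unadjusted p under 0.05, 3 of 4 were higher in STZ than in control and 3 of 4 in STZ+MENS than in control. They summed to 653458 and 667302 in STZ+MENS, 683362 and 731177 in STZ, and 551364 and 591748 in control. Cholangiocyte markers (3 of 7 higher in STZ than in control at an unadjusted p under 0.05) summed to 22658 and 17824 in STZ+MENS, 25368 and 19777 in STZ, and 16542 and 16097 in control. The 2 measured erythroid markers, Alas2 and Slc4a1, summed to 104836 and 9330 in STZ+MENS, 32621 and 55363 in STZ, and 79641 and 95699 in control, so STZ+MENS sample 2 stood far below sample 1. At an unadjusted p under 0.05, STZ+MENS had 2 of 5 hepatocyte, 2 of 6 pericentral and 1 of 7 cholangiocyte markers lower than STZ. Against control it had 2 of 5 hepatocyte markers lower and 2 of 7 cholangiocyte markers higher. Of all genes, 8.48% were higher in STZ than in control and 8.82% in STZ+MENS than in control. In STZ+MENS, 12.8% were lower than in STZ and 9.18% lower than in control. The part these cell types play in the results below was not tested, and in pieces of liver fewer cells of a type and less RNA per cell cannot be told apart.

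Signals of the 37 genes covered the whole range of the array, with mean intensities of 38 to 372132. Of them, 23 lay at 10000 or more and 1, Sult3a1, lay below 50. The 10 genes of highest mean were Gsta3, Sult1a1, Ugt2b1, Gstp1, Mgst1, Gstz1, Gstk1, Gstt1, Gsta4 and Gstt3. Gsta3, an alpha class transferase, gave 355839 and 363774 in STZ+MENS, 354064 and 375581 in STZ, and 382755 and 400777 in control samples. Its values lay within a narrow band in all 3 groups. Its probe ranked 27 to 44 among all probes on STZ+MENS arrays, 24 to 35 on STZ arrays and 17 to 31 on control arrays. In a distribution of values that the arrays nearly share, such ranks leave little room to rise, while a fall is not limited in this way.

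**Figure D1:**
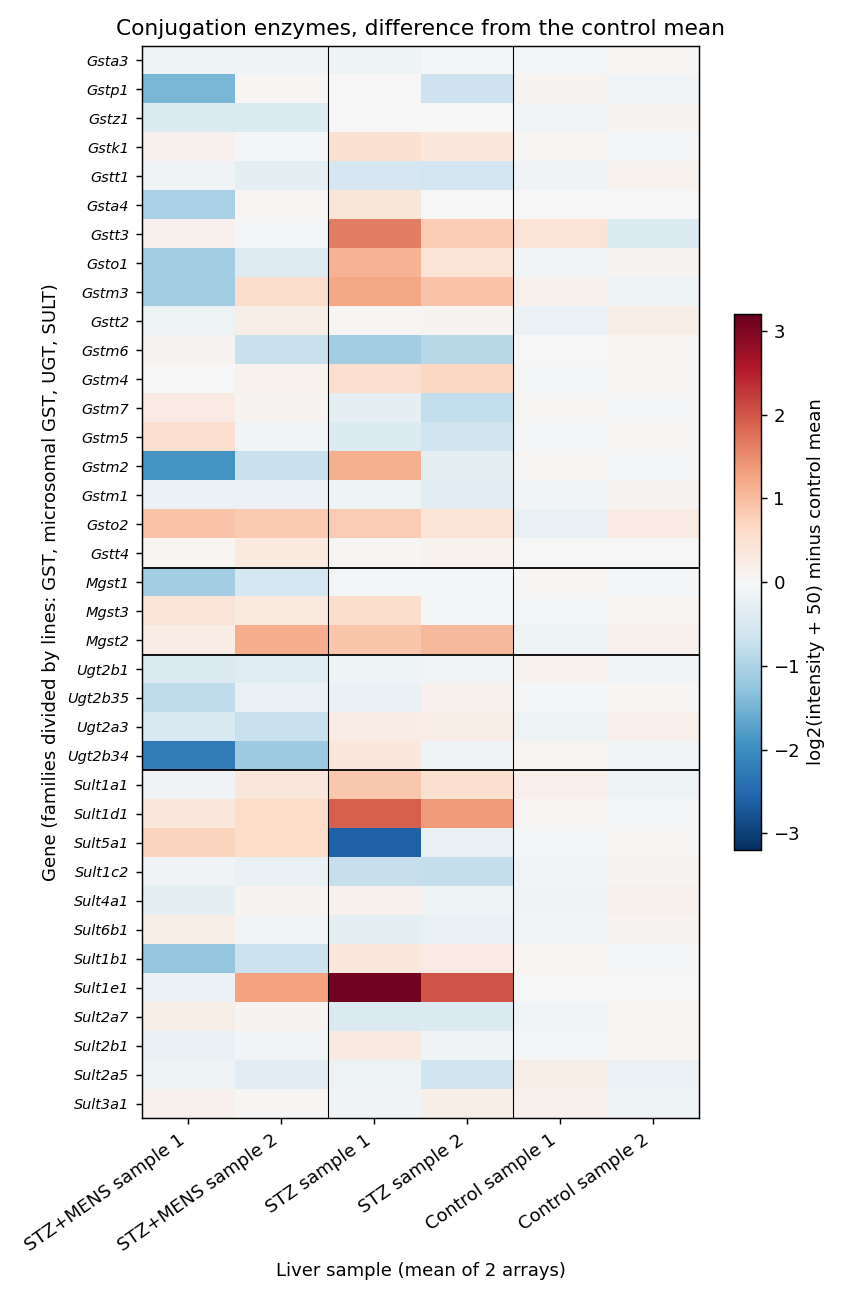
Each cell is the log2(intensity + 50) of 1 of the 37 genes (rows) in 1 liver sample (columns, the mean of 2 arrays) minus the mean of the control samples, with families divided by lines. Sult1e1 stands highest in STZ sample 1, and Ugt2b34 lies below the control mean in both STZ+MENS samples (mean difference from control -1.70).

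In STZ liver, the sulfotransferases Sult1e1 and Sult1d1 stood 2.56 ± 0.54 and 1.65 ± 0.21 (SE) above control on the log2 scale, the largest positive differences of the 37 genes. Gstt3, Mgst2, Gsto1, Sult1a1, Gsto2, Gstm4 and Gstk1 were higher in STZ by 0.41 to 1.23. Gstm6, Sult1c2, Gstt1, Gstm7 and Sult2a7 were lower in STZ, with differences of -1.0 to -0.45. None of the 37 passed limma's test at an adjusted p under 0.05 in the fit of all 3 groups, and 0.00564% of all genes did. At an unadjusted p under 0.05, 9 genes were higher (24.3% of the members against 8.48% of all genes) and 5 were lower (13.5% against 8.49%). In a limma fit of the STZ and control samples alone, 2 members passed at an adjusted p under 0.05, Sult1d1 (0.0427) and Sult1e1 (0.0458), as did 1.02% of all genes. The median difference of the 37 was 0.06, against -0.02 over all genes, and their median absolute difference was 0.40, against 0.21. Bright genes were called more often: among the 2955 genes with a mean of 10000 or more, 9.51% were higher and 11.2% lower, against 26.1% and 13.0% of the 23 members that bright. The 14 unadjusted calls became 9 without STZ sample 1, 9 without control sample 1 and 7 without control sample 2.

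In STZ+MENS liver set against STZ liver, Sult1e1, Ugt2b34, Gstm2, Gsto1, Gstm3, Sult1b1, Gstt3 and Sult1d1 were lower, with differences of -2.0 to -1.18. Ugt2a3, Mgst1, Sult1a1, Gstm4 and Gstz1 were lower by smaller amounts, with differences of -0.82 to -0.43. Sult5a1, Gstm5, Gstm7, Gstm6, Sult1c2 and Sult2a7 were higher in STZ+MENS, by 0.58 to 2.05. No member passed limma's adjusted threshold in the fit of 3 groups (0% of all genes) or of these 2 groups alone (0%). The lowest adjusted p in the limma fit of 3 groups was 0.0595, for Sult1b1. Unadjusted calls were 6 higher (16.2% against 12.6% of all genes) and 13 lower (35.1% against 12.8%). Among the bright genes 18.7% were higher and 18.1% lower, against 17.4% and 43.5% of the bright members. The median difference was -0.26, against 0.06 over all genes, and it was -0.01 when STZ+MENS sample 1 was left out and -0.10 when STZ sample 1 was left out. The numbers of calls also moved as single liver samples were left out, and the share of all genes called in those fits was not computed.

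In STZ+MENS liver set against control liver, Ugt2b34, Ugt2a3 and Ugt2b1 were lower in STZ+MENS, as were Sult1b1, Mgst1, Gsto1 and Gstz1, with differences of -1.70 to -0.41, and Gsto2 was higher by 0.87 ± 0.22. No member passed at an adjusted p under 0.05 with limma in the fit of 3 groups (0.00564% of all genes) or of these 2 groups alone (0.0113%). At an unadjusted p under 0.05, 1 gene was higher (2.7% against 8.82% of all genes) and 7 were lower (18.9% against 9.18%). Of the bright members 0 were higher and 6 lower (26.1%), against 11.5% and 12.6% of bright genes. The median difference was -0.12, against 0.02 over all genes. Without control sample 2, the 8 unadjusted calls became 5. The 3 comparisons share samples: STZ samples are the upper term of the first and the lower term of the second, and control samples are in the first and the third, so a high STZ value gives a positive difference in one and a negative one in the other.

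**Figure D2:**
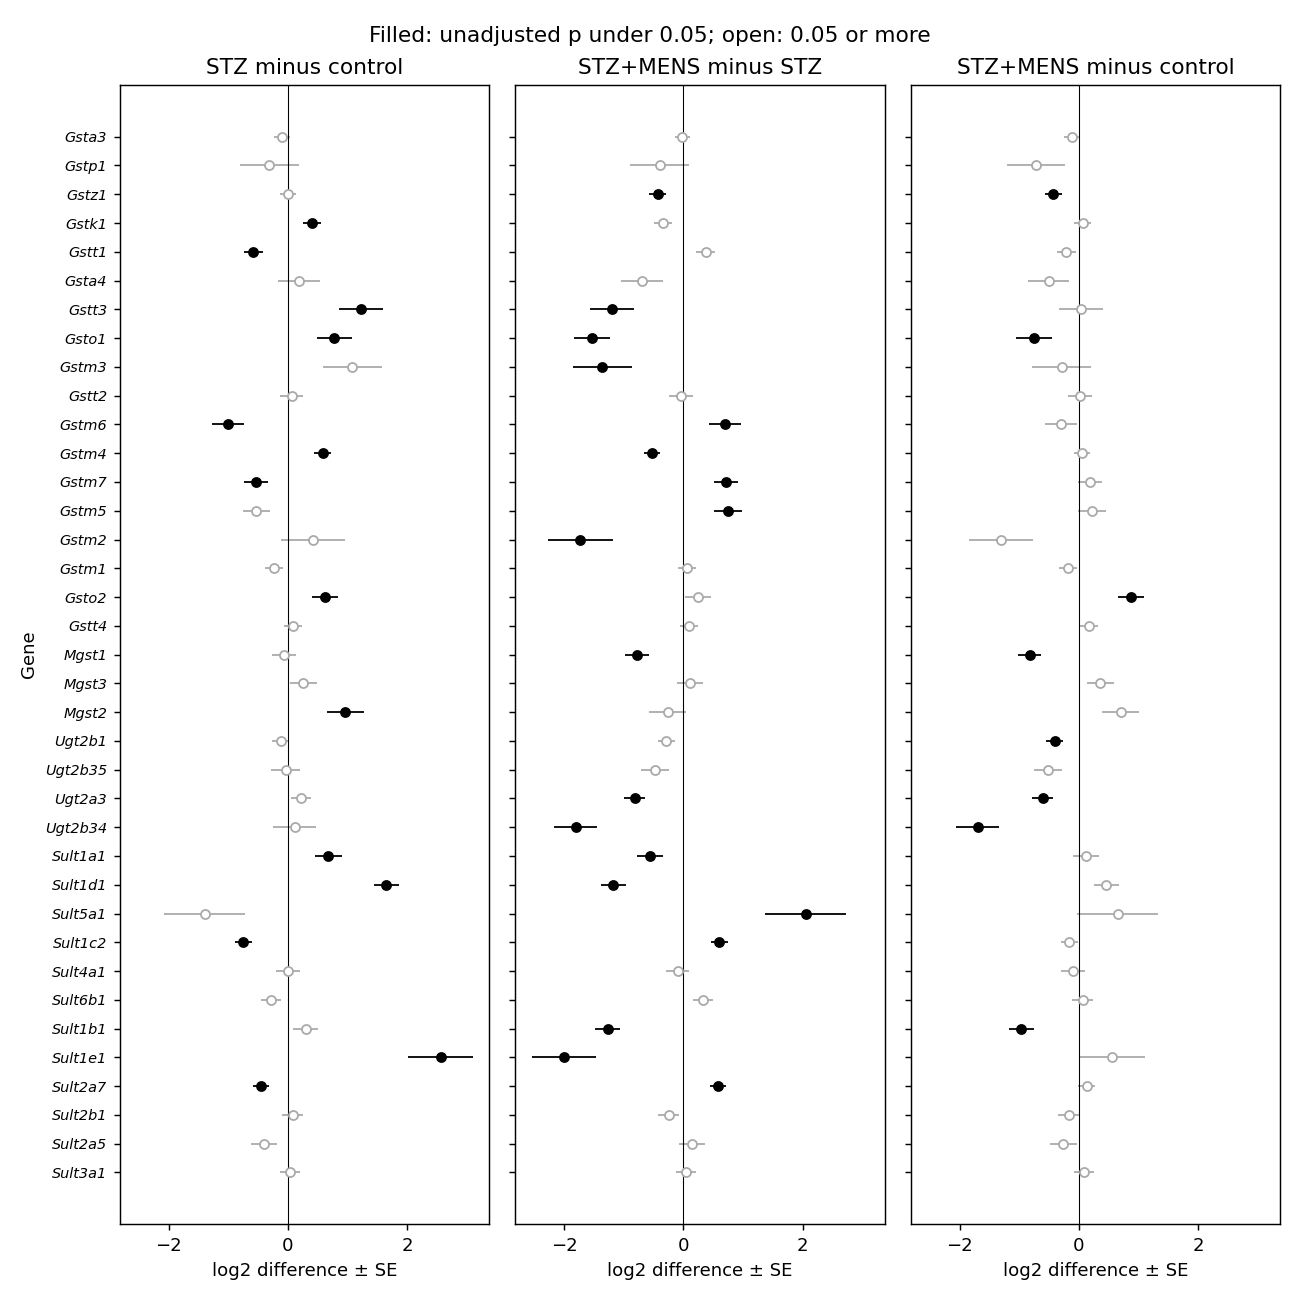
Points are the log2 differences of the 37 genes (rows) with SE bars for STZ minus control, STZ+MENS minus STZ and STZ+MENS minus control (panels), filled where the unadjusted p is under 0.05. In the middle panel 13 filled points lie below 0 and 6 above it, and no point passes the adjusted threshold.

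The sulfotransferases showed both the highest and the lowest of the STZ differences. Sult1e1, the estrogen sulfotransferase, gave 91 and 343 in STZ+MENS, 1323 and 597 in STZ, and 109 and 112 in control samples. Both STZ samples stood above all others, the control samples were alike, and the STZ+MENS samples lay on both sides of control. On the log2(intensity + 50) scale it was 5.89-fold higher in STZ than in control (unadjusted p = 0.00285 and adjusted p = 0.129, limma) and 4.0-fold lower in STZ+MENS than in STZ (adjusted p = 0.0976). The fold of this dim probe depends on the offset: the log2 difference between STZ and control was 2.56 with an offset of 50, 2.85 with 16 and 1.83 with 200. STZ+MENS and control differed by 0.56 ± 0.54, about the size of the error. Leaving out 1 liver sample at a time put the STZ difference between 2.01 and 3.10 and the STZ+MENS minus STZ difference between -2.74 and -1.26.

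Sult1d1, known in mice for sulfating catecholamines such as dopamine, gave 13850 and 16360 in STZ+MENS, 41370 and 28243 in STZ, and 11155 and 10662 in control samples. The groups did not overlap, and STZ+MENS lay between STZ and control, nearer to control. It was 3.13-fold higher in STZ than in control (limma, adjusted p = 0.0749) and 2.27-fold lower in STZ+MENS than in STZ (adjusted p = 0.0597), and the STZ+MENS minus control difference was 0.46 ± 0.21. Sult1b1, whose substrates include thyroid hormones, gave 186 and 296 in STZ+MENS, 659 and 617 in STZ, and 535 and 485 in control samples. STZ+MENS was the low group here, while STZ lay slightly above control. The STZ+MENS minus STZ difference was -1.27 ± 0.21 (adjusted p = 0.0595, limma) and the STZ+MENS minus control difference -0.97 ± 0.21, against 0.30 ± 0.21 for STZ minus control.

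Sult1b1, Sult1d1 and Sult1e1 are neighbours, with no other gene between them in RefSeq's order of mouse genes. The promoter windows of Sult1e1 and Sult1d1, each 300 bases long around the annotated start, are shown because these 2 members had the largest STZ differences. They are RefSeq sequences of build GRCm38.p6 at chr5:87591562-87591861 and chr5:87568957-87569256, both from the minus strand. Capitals mark a match to the core of the xenobiotic response element bound by AHR (GCGTG). The core of the antioxidant response element bound by NRF2 (TGACNNNGC) was searched as well, both on either strand.
Sult1e1: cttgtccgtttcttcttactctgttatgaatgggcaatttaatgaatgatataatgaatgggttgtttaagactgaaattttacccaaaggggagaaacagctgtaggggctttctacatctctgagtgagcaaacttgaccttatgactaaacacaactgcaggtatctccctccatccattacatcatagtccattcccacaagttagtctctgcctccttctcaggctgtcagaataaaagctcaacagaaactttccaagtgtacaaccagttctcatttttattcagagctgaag
Sult1d1: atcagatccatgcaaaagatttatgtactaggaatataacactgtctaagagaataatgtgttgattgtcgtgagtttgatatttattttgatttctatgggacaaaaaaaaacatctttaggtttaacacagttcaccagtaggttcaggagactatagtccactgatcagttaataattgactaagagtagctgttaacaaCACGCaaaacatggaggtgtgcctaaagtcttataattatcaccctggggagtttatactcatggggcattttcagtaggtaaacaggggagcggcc
The Sult1e1 window held neither core, and the Sult1d1 window held 1 xenobiotic core and no antioxidant core. Windows were at hand for 33 of the 37 genes, 44 in all. The antioxidant core was in 4 of the 44 (9.09%), in the genes Gsta3, Gstm5, Gstm7 and Mgst1, against 12.4% of 32851 mouse windows. The xenobiotic core was in 9 (20.5%), against 32.4%. A match describes the letters only.

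**Figure D3:**
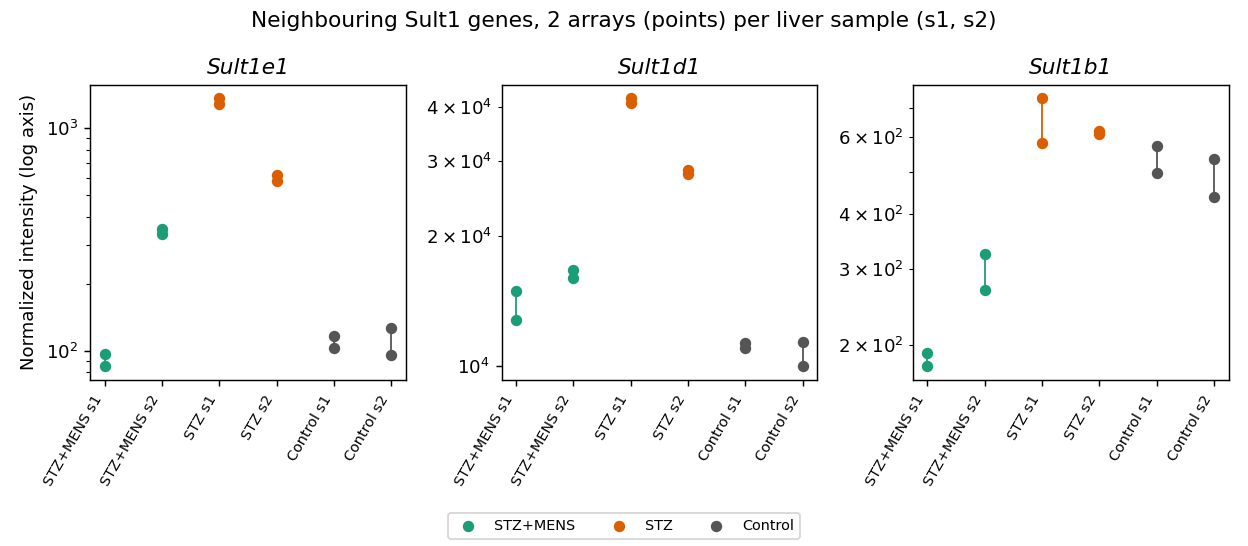
Normalized intensity (log axes, a scale for each gene) of Sult1e1, Sult1d1 and Sult1b1 on each array, with a line joining the 2 arrays of a liver sample. Sult1e1 and Sult1d1 are highest in both STZ samples, and Sult1b1 is lowest in both STZ+MENS samples (186 and 296).

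Sult1a1, the main phenol sulfotransferase, gave 164875 and 225541 in STZ+MENS, 319038 and 253096 in STZ, and 198126 and 157834 in control samples. STZ stood above both other groups, which overlapped. The differences were 0.68 ± 0.22 for STZ minus control, -0.56 ± 0.22 for STZ+MENS minus STZ (-0.33 without STZ+MENS sample 1) and 0.12 ± 0.22 for STZ+MENS minus control. Sult1c2, another cytosolic sulfotransferase, ran the other way, with 4973 and 4630 in STZ+MENS, 3185 and 3129 in STZ, and 5029 and 5653 in control samples. Both STZ samples were low and nearly equal, with differences of -0.75 ± 0.14 against control (adjusted p = 0.115, limma) and 0.60 ± 0.14 for STZ+MENS minus STZ (adjusted p = 0.0794). Sult2a7, of the family that sulfates hydroxysteroids, was dim and was also lowest in STZ, with 199 and 180 in STZ+MENS, 111 and 111 in STZ, and 157 and 180 in control. Its differences were -0.45 ± 0.14 for STZ minus control and 0.58 ± 0.14 for STZ+MENS minus STZ.

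Sult5a1 gave 23887 and 22420 in STZ+MENS, 2384 and 12407 in STZ, and 14074 and 14956 in control samples. The STZ samples differed widely from each other, and sample 1 lay far below every other sample. STZ+MENS minus STZ was 2.05 ± 0.68 (adjusted p = 0.138, limma), and it ran between 0.87 and 3.23 as single liver samples were left out. The STZ minus control difference was -1.40 ± 0.68. Of the other sulfotransferases, Sult6b1, Sult4a1, Sult2b1, Sult2a5 and Sult3a1 had unadjusted p values above 0.05 in all 3 comparisons, and they lay between 30 and 1151 in single liver samples.

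The 7 mu class transferases, which conjugate a broad set of electrophiles, lie side by side in the order Gstm5, Gstm7, Gstm6, Gstm3, Gstm2, Gstm1, Gstm4, with no other protein-coding gene between them. Their STZ minus control differences had no common sign: at an unadjusted p under 0.05, Gstm7 and Gstm6 were lower and Gstm4 was higher, while Gstm5 (-0.53), Gstm3 (1.08), Gstm2 (0.42) and Gstm1 (-0.24) did not reach it, and none passed after adjustment. Gstm6 gave 40962 and 23927 in STZ+MENS, 17690 and 20653 in STZ, and 37570 and 38846 in control samples. STZ was the low group, and the STZ+MENS samples were spread from near STZ to above control. The difference was -1.0 ± 0.27 for STZ minus control (adjusted p = 0.17, limma) and 0.70 ± 0.27 for STZ+MENS minus STZ.

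Gstm7 gave 14424 and 13050 in STZ+MENS, 9822 and 6992 in STZ, and 12341 and 11708 in control samples, with STZ below both other groups. Its differences were -0.53 ± 0.20 for STZ minus control and 0.71 ± 0.20 for STZ+MENS minus STZ. Gstm5 gave 15903 and 10217 in STZ+MENS, 8081 and 7032 in STZ, and 10686 and 11135 in control samples. STZ was again the low group. It differed from control by -0.53 ± 0.23 (unadjusted p = 0.0587, limma), and STZ+MENS minus STZ was 0.75 ± 0.23 (unadjusted p = 0.0159).

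Gstm3 gave 19058 and 60298 in STZ+MENS, 97360 and 77897 in STZ, and 45492 and 37462 in control samples. STZ stood above the rest, and the STZ+MENS samples lay below and above control. Its STZ minus control difference of 1.08 ± 0.50 had an unadjusted p of 0.0745 in limma's fit of 3 groups and of 0.00137 when only STZ and control samples were fitted, so that the spread of STZ+MENS did not enter. The STZ+MENS minus STZ difference was -1.36 ± 0.50, and -0.53 without STZ+MENS sample 1. Gstm4 gave 10014 and 11354 in STZ+MENS, 14304 and 15881 in STZ, and 9757 and 10431 in control samples. STZ was the high group, by 0.58 ± 0.14 over control (adjusted p = 0.155, limma), and STZ+MENS lay -0.53 ± 0.14 from STZ. Gstm2 gave 415 and 1011 in STZ+MENS, 3753 and 1368 in STZ, and 1739 and 1636 in control samples, with STZ+MENS lowest. Its STZ+MENS minus STZ difference was -1.73 ± 0.54, and -1.02 without STZ sample 1. Gstm1 lay between 916 and 1262 in every sample and had no unadjusted p under 0.05. As single liver samples were left out, the STZ+MENS minus STZ differences of Gstm6, Gstm7 and Gstm5 ran over 0.30 to 1.10, 0.47 to 0.96 and 0.44 to 1.07, and Gstm7 in STZ minus control over -0.78 to -0.29. The mu genes are close in sequence and the probe sequences were not used here, so how far each probe tells its gene from its neighbours was not tested.

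The windows of Gstm5 and Gstm3 are shown because these 2 genes of the cluster had mean STZ differences of opposite sign, neither of them past an unadjusted p of 0.05. They are RefSeq sequences of build GRCm38.p6 at chr3:107895604-107895903 (plus strand) and chr3:107969125-107969424 (minus strand), with matches to the same 2 cores in capitals.
Gstm5: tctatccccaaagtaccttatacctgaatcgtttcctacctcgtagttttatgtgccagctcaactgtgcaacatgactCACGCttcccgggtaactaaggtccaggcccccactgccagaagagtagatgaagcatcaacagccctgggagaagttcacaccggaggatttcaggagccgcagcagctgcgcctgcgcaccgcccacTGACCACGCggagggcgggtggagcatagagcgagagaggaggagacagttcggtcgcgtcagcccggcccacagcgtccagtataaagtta
Gstm3: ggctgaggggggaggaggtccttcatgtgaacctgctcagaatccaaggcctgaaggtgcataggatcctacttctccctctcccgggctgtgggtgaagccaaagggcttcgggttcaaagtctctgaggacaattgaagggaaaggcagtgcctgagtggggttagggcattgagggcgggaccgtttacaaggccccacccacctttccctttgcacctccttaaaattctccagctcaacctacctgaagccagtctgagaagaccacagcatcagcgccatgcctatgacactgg
The Gstm5 window held 1 antioxidant core and 2 xenobiotic cores, 1 of which overlaps the antioxidant core within TGACCACGC. The Gstm3 window held none. The mu genes with an unadjusted p under 0.05 in STZ minus control did not show this contrast. Gstm6 (lower) and Gstm4 (higher) held neither core, and Gstm7 (lower) held an antioxidant core. Of the rest, Gstm1 held a xenobiotic core and Gstm2 neither.

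**Figure D4:**
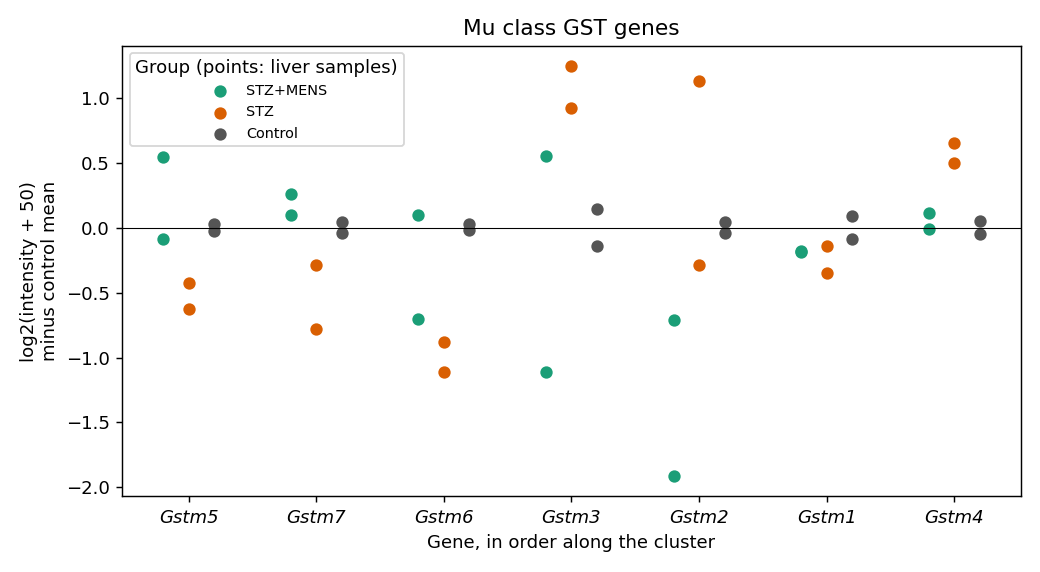
Points are liver samples, as log2(intensity + 50) minus the control mean, for the 7 mu class genes in their order along the cluster. In STZ, the mean differences from control are -0.53 (Gstm5), -0.53 (Gstm7), -1.0 (Gstm6), 1.08 (Gstm3), 0.42 (Gstm2), -0.24 (Gstm1) and 0.58 (Gstm4).

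Theta class genes, whose enzymes act on small halogenated compounds among others, did not run together. Gstt3 gave 48883 and 42485 in STZ+MENS, 139026 and 78560 in STZ, and 60496 and 32911 in control samples. STZ stood above both other groups, and each group except STZ+MENS was widely spread. It was 2.34-fold higher in STZ than in control (adjusted p = 0.196, limma) and 2.29-fold lower in STZ+MENS than in STZ (adjusted p = 0.122). Leaving out single liver samples put these log2 differences between 0.79 (without control sample 2) and 1.67, and between -1.61 and -0.79 (without STZ sample 1). Gstt1 gave 81031 and 71468 in STZ+MENS, 60760 and 57053 in STZ, and 81115 and 95357 in control samples, so STZ was the low group. The difference was -0.58 ± 0.16 for STZ minus control and 0.37 ± 0.16 for STZ+MENS minus STZ. Gstt2 and Gstt4 differed by 0.17 or less in size in all 3 comparisons.

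The omega class enzyme Gsto1, which reduces dehydroascorbate and releases protein thiols from glutathione, gave 23986 and 40032 in STZ+MENS, 110841 and 69836 in STZ, and 47924 and 54264 in control samples. The 3 groups did not overlap, with STZ highest and STZ+MENS lowest. The differences were 0.78 ± 0.30 for STZ minus control, -1.54 ± 0.30 for STZ+MENS minus STZ (adjusted p = 0.0663, limma) and -0.75 ± 0.30 for STZ+MENS minus control. The first became 0.45 without STZ sample 1 and the last -0.41 without STZ+MENS sample 1. Gsto2 followed another order, with 1198 and 1152 in STZ+MENS, 1115 and 850 in STZ, and 510 and 745 in control samples. Control was the low group, by 0.87 ± 0.22 below STZ+MENS and 0.62 ± 0.22 below STZ, the second being 0.37 without control sample 1.

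Gstz1, the zeta class enzyme that isomerizes maleylacetoacetate in tyrosine breakdown, gave 106116 and 109483 in STZ+MENS, 143245 and 142421 in STZ, and 133972 and 151453 in control samples. STZ and control were alike (0.00 ± 0.14), and STZ+MENS lay below both, with a difference of -0.43 ± 0.14 from each. Gstk1, found in mitochondria and peroxisomes, gave 99098 and 86893 in STZ+MENS, 124486 and 111921 in STZ, and 91259 and 86262 in control samples. STZ was the high group, by 0.41 ± 0.15 over control. Gstp1, the pi class enzyme, gave 72858 and 206895 in STZ+MENS, 204582 and 128724 in STZ, and 214806 and 189094 in control samples. STZ+MENS sample 1 stood alone at the low end, and the groups overlapped in all 3 comparisons. Gsta4, which conjugates the lipid peroxidation product hydroxynonenal, gave 35351 and 74145 in STZ+MENS, 94655 and 71821 in STZ, and 72710 and 73158 in control samples. It too was low in STZ+MENS sample 1 alone, and its STZ+MENS minus STZ difference of -0.69 ± 0.35 was -0.15 without that sample.

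Among the membrane-bound transferases, Mgst1, which protects membranes from lipid peroxides, gave 92167 and 134463 in STZ+MENS, 191013 and 188720 in STZ, and 201724 and 192911 in control samples. STZ and control were nearly equal and STZ+MENS lay below both, with differences of -0.78 ± 0.20 against STZ (adjusted p = 0.0905, limma, and -0.51 without STZ+MENS sample 1) and -0.83 ± 0.20 against control (adjusted p = 0.133). Mgst2, which can make leukotriene C4, gave 235 and 495 in STZ+MENS, 401 and 446 in STZ, and 169 and 216 in control samples. Control was the low group, and STZ minus control was 0.96 ± 0.31. Mgst3 had no unadjusted p under 0.05 in the 3 comparisons.

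All 4 UDP-glucuronosyltransferases had lower means in STZ+MENS than in STZ and than in control. Of all 17742 genes, 7730 had lower means in STZ+MENS than in STZ and 8336 than in control. The STZ minus control differences of the 4 lay between -0.12 and 0.22. Ugt2b34 gave 7455 and 15994 in STZ+MENS, 44800 and 32646 in STZ, and 37496 and 33572 in control samples. Both STZ+MENS samples lay far below the others, which overlapped. The level was 3.50-fold lower in STZ+MENS than in STZ (adjusted p = 0.0671, limma) and 3.24-fold lower than in control (adjusted p = 0.127). Leaving out single liver samples put these log2 differences between -2.35 and -1.26 and between -2.24 and -1.15.

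Ugt2a3 gave 23850 and 21139 in STZ+MENS, 39363 and 39006 in STZ, and 30186 and 37571 in control samples, with STZ+MENS again lowest. It lay -0.82 ± 0.17 from STZ (adjusted p = 0.068, limma) and -0.61 ± 0.17 from control. Ugt2b35 gave 28074 and 42289 in STZ+MENS, 42200 and 54376 in STZ, and 48183 and 50432 in control samples. Sample 1 of STZ+MENS was the low one, and neither difference (-0.48 ± 0.24 and -0.52 ± 0.24) had an unadjusted p under 0.05. Ugt2b1 gave 166231 and 172341 in STZ+MENS, 202888 and 211457 in STZ, and 240478 and 209056 in control samples. STZ+MENS was the lowest group, with differences of -0.29 ± 0.14 against STZ and -0.41 ± 0.14 against control. At an unadjusted p under 0.05, 2 of the 4 were lower than in STZ, as were 12.8% of all genes. Against control 3 of 4 were lower, as were 9.18% of all genes. All 4 were bright, and among bright genes these shares were higher, at 18.1% and 12.6% in the same order. For Ugt2b1 against control, the unadjusted p was 0.0503 (limma) when only STZ+MENS and control samples were fitted. Its difference ran over -0.51 to -0.31 as single liver samples were left out.

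**Figure D5:**
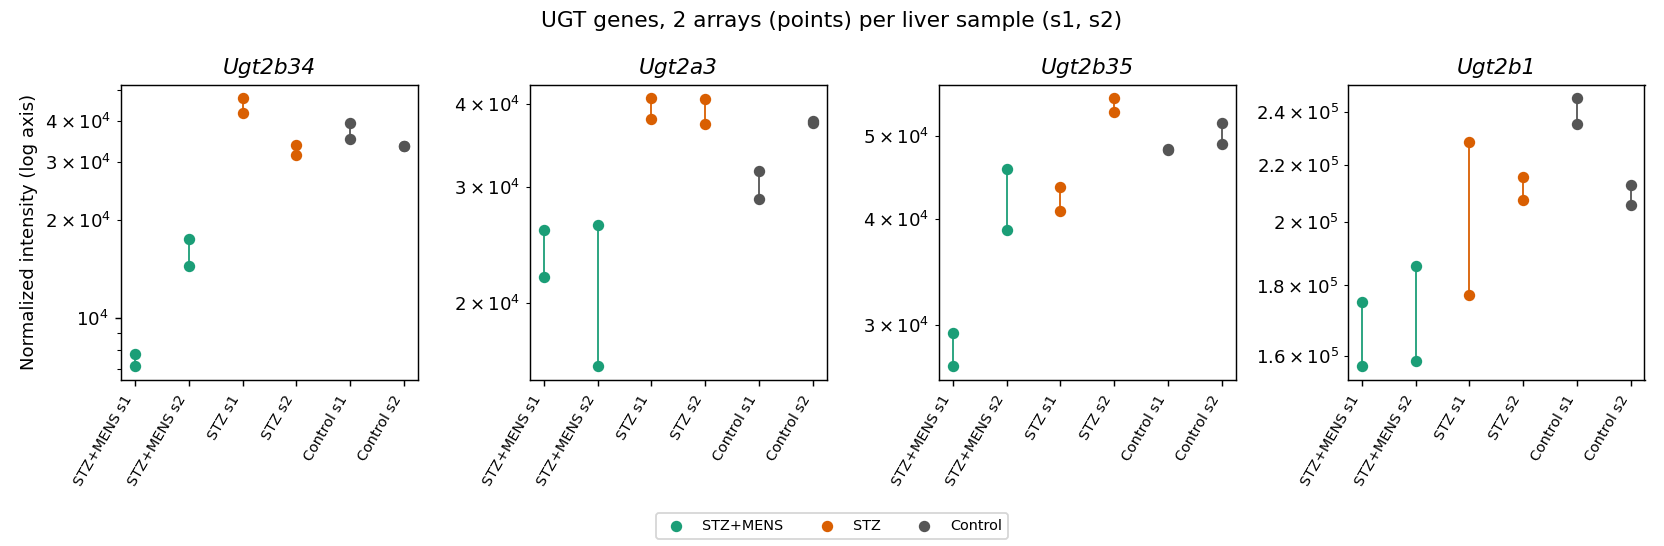
Normalized intensity (log axes, a scale for each gene) of the 4 UDP-glucuronosyltransferases on each array, with a line joining the 2 arrays of a liver sample. The STZ+MENS samples are lowest for Ugt2b34 (7455 and 15994) and Ugt2a3, and STZ overlaps control for Ugt2b34.

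The STZ+MENS samples differed from each other in several members. The log2 gap between the 2 samples of a group was over 1 for 6 of the 37 genes in STZ+MENS, 3 in STZ and 0 in control, against 4.1%, 2.06% and 2.38% of all genes, in that order. The median gap over members was 0.24 in STZ+MENS, 0.28 in STZ and 0.16 in control, against 0.22, 0.17 and 0.18 over all genes. STZ+MENS sample 2 also had the least alike pair of arrays, with the widest gap between arrays of any liver sample for 17 of the 37 genes and for 37.7% of all genes.

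Genes around the sulfate, glucuronate and glutathione donors were read from lists chosen for this family, and none of them passed an adjusted p under 0.05 in limma's fit of 3 groups. Of 12 genes of glutathione supply and breakdown, 5 were higher and 1 lower in STZ than in control at an unadjusted p under 0.05. In STZ+MENS against STZ, 1 was higher and 6 were lower. The same threshold called 8.48% of all genes higher and 8.49% lower in STZ than in control, 12.6% and 12.8% in STZ+MENS than in STZ, and 8.82% and 9.18% in STZ+MENS than in control, and the counts of the lists below are to be read beside these shares. Gclc, the catalytic subunit of the rate-limiting enzyme of glutathione synthesis, had log2 levels of 13.48 and 14.41 in STZ+MENS, 14.72 and 15.42 in STZ, and 13.80 and 13.59 in control samples. STZ stood highest, by 1.38 ± 0.36 over control, and STZ+MENS minus STZ was -1.13 ± 0.36. Its partner subunit Gclm differed by 0.51 ± 0.15 and -0.91 ± 0.15 in the same comparisons, and Cth, which makes cysteine, by 1.27 ± 0.51 and -1.80 ± 0.51. Oplah and Chac2 were also higher in STZ than in control, by 0.59 ± 0.18 and 0.44 ± 0.16. Chac2 (-0.71 ± 0.16), Ggct (-0.54 ± 0.21) and Gsr (-0.51 ± 0.18) were lower in STZ+MENS than in STZ. Chac1 ran the other way, with -1.04 ± 0.24 for STZ minus control and 0.85 ± 0.24 for STZ+MENS minus STZ. Against control, STZ+MENS was higher in Oplah (0.48 ± 0.18) and lower in Gclm (-0.40 ± 0.15).

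Of 5 measured genes of UDP-glucuronate supply and use, 2 (Ugp2 and Pgm2) were higher in STZ than in control and 3 (Ugp2, Pgm1 and Gusb) were lower in STZ+MENS than in STZ. Ugp2, which makes UDP-glucose, differed by 0.65 ± 0.22 and -0.63 ± 0.22. STZ+MENS minus control gave 1 higher, Pgm2 (0.48 ± 0.13), and 1 lower, Gusb (-0.51 ± 0.17). Of 6 genes around the sulfate donor, only Suox, the sulfite oxidase, had an unadjusted p under 0.05, with 0.60 ± 0.14 for STZ minus control and -0.66 ± 0.14 for STZ+MENS minus STZ, and none did for STZ+MENS minus control.

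Of 6 efflux pumps, 3 were higher in STZ than in control, Abcc4 by 2.09 ± 0.52, Abcb1a by 1.04 ± 0.18 and Abcc3 by 0.83 ± 0.24. Abcc4, a basolateral pump, had log2 levels of 7.53 and 9.27 in STZ+MENS, 10.58 and 10.82 in STZ, and 8.68 and 8.55 in control samples. STZ was the high group and the STZ+MENS samples lay on both sides of control. In STZ+MENS against STZ, Abcc4 (-2.30 ± 0.52) and Abcb1a (-1.15 ± 0.18) were lower and Abcc6 was higher (0.52 ± 0.15), and against control Abcg2 was higher (0.67 ± 0.26).

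Of 15 other conjugation and detoxification enzymes, 3 were higher (Nnmt, Ephx1 and Nqo1) and 3 lower (Nat1, Inmt and Acsm1) in STZ than in control. Nat1, an arylamine acetyltransferase, had -1.10 ± 0.21, and Nnmt, which methylates nicotinamide, 2.81 ± 1.04. Against STZ, STZ+MENS was higher in Inmt, Acsm1 and Nat1 and lower in Slc27a5, Hnmt, Acsm3 and Nqo1, and against control it was lower in Slc27a5 and Acsm3.

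Of 15 regulators, none passed after adjustment. At an unadjusted p under 0.05, 4 were higher and 2 lower in STZ than in control, 4 were higher and 3 lower in STZ+MENS than in STZ, and 3 were higher in STZ+MENS than in control. The shares of all genes were 8.48% and 8.49%, 12.6% and 12.8%, and 8.82% higher, in that order. Nfe2l2, which encodes NRF2, had log2 levels of 13.33 and 13.32 in STZ+MENS, 14.13 and 14.22 in STZ, and 12.94 and 12.97 in control samples. The groups were well apart, with STZ highest, and STZ minus control was 1.22 ± 0.13 (adjusted p = 0.0654, limma), STZ+MENS minus STZ -0.85 ± 0.13 and STZ+MENS minus control 0.37 ± 0.13. Nr1i3, which encodes CAR, had 15.84 and 16.06 in STZ+MENS, 14.81 and 15.43 in STZ, and 14.92 and 14.70 in control samples. STZ+MENS was the high group, by 0.83 ± 0.24 over STZ and 1.14 ± 0.24 over control. Ahr differed by 0.42 ± 0.14, -0.39 ± 0.14 and 0.03 ± 0.14 in the order STZ minus control, STZ+MENS minus STZ and STZ+MENS minus control. Nr1i2 gave 0.55 ± 0.20, -0.22 ± 0.20 and 0.32 ± 0.20, and Ppara 0.11 ± 0.17, 0.31 ± 0.17 and 0.42 ± 0.17, in that order. Maf was higher in STZ than in control (0.88 ± 0.17) and lower in STZ+MENS than in STZ (-0.77 ± 0.17). Arnt and Nr1h4 were lower in STZ than in control (-0.63 ± 0.18 and -0.46 ± 0.16) and higher in STZ+MENS than in STZ (0.85 ± 0.18 and 0.75 ± 0.16), and Mafk was higher in STZ+MENS than in both other groups (0.91 ± 0.18 and 0.98 ± 0.18).

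The 8 measured members known to respond to NRF2 in mouse liver were called about as often as all genes in STZ against control, where 1 was higher (Gstm4) and 1 lower (Gstm6) at an unadjusted p under 0.05, beside 8.48% and 8.49% of all genes. In STZ+MENS against STZ 1 was higher (Gstm6) and 3 were lower (Gstm2, Gstm3 and Gstm4), beside 12.6% and 12.8% of all genes, and none was called in STZ+MENS against control. Their median differences were 0.07, -0.50 and -0.41 in the order STZ minus control, STZ+MENS minus STZ and STZ+MENS minus control, against -0.02, 0.06 and 0.02 over all genes. Several of these members were low mainly in STZ+MENS sample 1. Without it, STZ+MENS minus STZ went from -1.36 to -0.53 for Gstm3, from -0.69 to -0.15 for Gsta4 and from -0.40 to 0.35 for Gstp1. The medians of these 8 with single liver samples left out were not computed.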

How the data were processed

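Liver RNA in 3 groups of 2 liver samples was read on 2 arrays each, 12 arrays in all. The authors deposited 1 normalized intensity per probe on a linear scale, and the sorted values differ by at most 6.31% between arrays outside the 1000 lowest. The submitters' processing notes name limma 3.30.7 without its role, and do not describe background correction or normalization, which the sources used here leave unstated. Probes were named through the platform annotation: 20377 of 26423 probes had 1 gene name, and symbols were updated through RefSeq.

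Intensities below 0 (44 to 52 probes an array) were set to 0. The 2 arrays of a liver sample were averaged on the log2(intensity + 50) scale, and the 3 groups were fitted with limma 3.58.1 (lmFit and eBayes, R 4.3.3), two-sided, with Benjamini-Hochberg adjustment over 17742 genes and a threshold of 0.05. The fit has 3 residual degrees of freedom, and p-values reflect only how far these liver samples spread, which may be technical. The number of liver samples limits the precision. Figures were drawn with matplotlib 3.10.9 in Python 3.11.15. The limma fit alone was also run on simulated liver sample values. The offset, the averaging of arrays and the choice of probes were not part of that run, and its outcome is not reported here.

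Named genes were the 10 members of highest mean intensity, and for each comparison and direction up to 12 members with an unadjusted p under 0.05, no overlap of liver samples and a mean of at least 50 in 1 group. Lack of overlap is common with 2 samples against 2. Among the 2955 bright genes, 29.8% were higher and 31.4% lower without overlap in STZ against control. The shares were 34.7% and 31.6% in STZ+MENS against STZ, and 28.8% and 28.2% in STZ+MENS against control. List genes were named where the unadjusted p was under 0.05, and Nfe2l2, Nr1i2, Nr1i3, Ahr and Ppara in any case. The other members named with values (Gsta4, Gstm1, Gstm5 in STZ, Gstm3 in STZ, Ugt2b35 and the members without a call) complete the account of each class and were chosen after their values were seen. Members and lists were chosen with earlier results of these data known. Alternatives were offsets of 16 and 200, a filter at a mean intensity of 100, the mean of all probes of a gene, arrays centred on their medians, single arrays, arrays with the liver sample as a random block, the sample number as a block, 2 groups alone and each liver sample left out.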

Additional observations from a re-analysis of the deposited data

How the results depend on the processing

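With all 12 arrays fitted and the liver sample as a random block (estimated correlation 0.485), 8 members passed the adjusted threshold for STZ minus control, 15 for STZ+MENS minus STZ and 3 for STZ+MENS minus control, against 0 in each with arrays averaged. The share of all genes passing in that fit was not computed, so whether the members stand out in it was not tested. The 2 groups alone gave 2 for STZ minus control. With 1 liver sample left out at a time, adjusted calls ranged over 0 to 2, 0 to 10 and 0 to 0 in these comparisons and unadjusted calls over 7 to 16, 12 to 21 and 5 to 11. The median over members ranged over -0.04 to 0.09, -0.31 to -0.01 and -0.16 to -0.07, and over members of intensity 50 or more over -0.05 to 0.11, -0.32 to -0.08 and -0.16 to -0.08. No paired analysis was used as the main one: the sample numbers of the source names only name samples (correlations of deviations -0.07, -0.03 and 0.00), and the numbers in the titles are shared by STZ+MENS and control, in the same pairs, but not by STZ. With the liver sample number as a replicate block, adjusted calls were 0 in each comparison and unadjusted calls 14, 19 and 8, as without it. Of the named members, Gstz1 in STZ minus control turned to -0.08 on the second arrays and -0.01 with arrays centred, Gsta3 in STZ+MENS minus STZ to 0.00 on the first arrays, and in STZ+MENS minus control Gstk1 to -0.01 on the first and Gstt3 to 0.00 on the second arrays. Their cause was not tested. Leaving out single liver samples turned the sign of small differences, over the ranges -0.65 to 0.02 (Gstp1) and -0.09 to 0.09 (Gstz1) and -0.02 to 0.38 (Gsta4) for STZ minus control, -0.06 to 0.02 (Gsta3) and -1.15 to 0.35 (Gstp1) for STZ+MENS minus STZ, and -0.11 to 0.35 (Sult1a1), -1.47 to 0.03 (Gstp1), -0.03 to 0.15 (Gstk1), -1.04 to 0.02 (Gsta4) and -0.41 to 0.47 (Gstt3) for STZ+MENS minus control. In all, settings other than leaving out a sample gave 567 results of named members with the direction and side of the threshold kept, 28 past the threshold and 5 with the sign turned. With 2 liver samples a group, 3 residual degrees of freedom and a distribution of values that the arrays nearly share, small differences could not be told from the spread.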

Other observations

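The platform's older names left 2 sulfotransferase genes outside the choice by symbol. Sult2a8, a bile acid sulfotransferase of mouse liver, had a mean intensity of 142403. It differed by -0.20 ± 0.19 (SE) between STZ and control, -0.34 ± 0.19 between STZ+MENS and STZ and -0.54 ± 0.19 between STZ+MENS and control on the log2 scale, with an unadjusted p of 0.0273 in limma's fit of 3 groups for the last. Sult6b2 had a mean of 172 and differences of 0.13 or less in size.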
